A study of Homo sapiens with 23 samples.

Results

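The regions described here are the stretches of the genome that were enriched in the V5 ChIP-seq library of MCF10A cells making V5-tagged p53 Y220C and that shared no base with any region of the WTOE-labelled list. There were 732 of them on chromosomes 1 to 22 and X, out of 1160 regions in the Y220C list and 34819 regions in the 5 lists of the series. The other 428 Y220C regions overlapped the WTOE-labelled list and serve as the comparison set. The members were chosen by the region calls themselves, that is by presence in the Y220C list and absence from the WTOE-labelled list, so the height, width and absence from WTOE given below are descriptions and carry no test.

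MCF10A is an untransformed human mammary epithelial line that keeps its own wild-type p53. The lines with ChIP data were untreated and stably transduced with lentivirus, the Y220C, Y234C, R273C and R273H mutants in pLenti4/V5-DEST and the wild-type overexpression control, WTOE, in pLX304, so the vector as well as the protein differed between the members' line and the WTOE line. Each line had 1 V5 ChIP-seq library, called against its own input DNA, and 13 lines had 1 RNA-seq library each: the 10 mutants Y163C, R175H, H179R, Y220C, Y234C, G245S, R248Q, R248W, R273C and R273H, the overexpression control WTOE, the knockdown control WTKD and the WT control. The Y220C RNA library had all 10 basal mammary markers at a log2(TPM+1) of at least 1 and 5 of 5 blood markers at 0, with 4 of 8 luminal, 1 of 6 fibroblast and 0 of 4 endothelial markers at 1 or more. The fibroblast markers summed to 48 TPM in Y220C, against 2.35 to 56.6 TPM in the other 12 lines. V5 ChIP from cells without tagged p53 was not analysed here, so regions that any V5 library would give could not be marked among the members.

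p53 is a transcription factor that binds DNA as a tetramer through pairs of a short decamer half-site. The Y220C substitution destabilises the DNA-binding core, whereas the arginine changed in R273H and R273C touches the DNA directly. Much of the human genome that can collect ChIP fragments is repeated. Alu elements are short, CpG-rich copies descended from the 7SL RNA gene, and some pericentromeric satellites are built from pentamer units. Macrosatellites such as D4Z4 (which carries the DUX4 genes) and DXZ4 (on the X chromosome) are long arrays of CpG-rich units. Reads from near-identical copies can be placed at any of them, so a region in such sequence marks a family of copies and not 1 locus.

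The sequences at the summits are shown first, as examples and not as a cross-section of the 732 regions. Most of those shown are repeats, and none is of the 7SL-like kind. Among the members, 246 were of the 7SL-like kind, 37 were pentamer satellites and 322 were of none of the repeat kinds described below. Those 322 still held some repeated sequence, such as chr5:49615469-49615833, whose 31-base words occur a median of 3588 times. Each line gives 200 bases of the GRCh38 reference around the summit of 1 region, written 5′ to 3′. In the first pair, from the pericentromere of chromosome 1 (chr1:143247068-143247267, minus strand) and of chromosome 10 (chr10:41898898-41899097, plus strand), capitals mark the pentamer GGAAT, with 10 copies in the first and 24 in the second.
pericentromere of chromosome 1: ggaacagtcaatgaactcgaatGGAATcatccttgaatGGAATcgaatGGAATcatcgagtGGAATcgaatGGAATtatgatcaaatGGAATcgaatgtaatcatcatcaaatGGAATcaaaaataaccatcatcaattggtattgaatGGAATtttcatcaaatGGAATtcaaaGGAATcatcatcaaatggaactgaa
pericentromere of chromosome 10: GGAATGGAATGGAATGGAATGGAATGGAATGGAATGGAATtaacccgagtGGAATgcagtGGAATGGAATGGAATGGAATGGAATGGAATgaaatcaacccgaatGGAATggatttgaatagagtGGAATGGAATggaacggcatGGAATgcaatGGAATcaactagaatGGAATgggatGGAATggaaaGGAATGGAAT

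The next 3 come from arrays of long repeat units, with CG dinucleotides in capitals: the D4Z4 array at DUX4L2 (chr4:190091111-190091310, 20 CG), the DXZ4 array (chrX:115854189-115854388, 9 CG) and the promoter of USP17L24, a deubiquitinase gene of the multi-copy USP17L family (chr4:9324851-9325050, 5 CG), all on the plus strand.
DUX4L2: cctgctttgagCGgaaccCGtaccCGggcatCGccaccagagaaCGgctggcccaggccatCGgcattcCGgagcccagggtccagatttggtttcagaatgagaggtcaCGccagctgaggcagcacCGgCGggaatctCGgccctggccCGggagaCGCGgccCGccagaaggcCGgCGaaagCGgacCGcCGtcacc
DXZ4: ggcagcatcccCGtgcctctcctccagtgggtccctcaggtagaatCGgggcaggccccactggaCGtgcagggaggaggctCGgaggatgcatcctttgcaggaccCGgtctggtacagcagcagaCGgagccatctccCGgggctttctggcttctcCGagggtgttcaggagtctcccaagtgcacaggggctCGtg
USP17L24 promoter: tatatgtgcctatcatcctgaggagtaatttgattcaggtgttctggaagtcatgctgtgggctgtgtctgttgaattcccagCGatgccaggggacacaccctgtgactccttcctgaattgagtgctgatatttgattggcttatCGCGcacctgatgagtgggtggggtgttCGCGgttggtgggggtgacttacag

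The last pair contrast a single-copy region with a repeat that holds a p53 decamer. The PCNX2 region (chr1:233000299-233000498, plus strand) had the highest significance among members at a start site of any annotated transcript of a single-copy protein-coding gene. Such a start can lie inside the gene, so the label promoter does not mean the gene's main start site. All 31-base words of the region occur once in the genome, and its 12 CG are in capitals. The region on chromosome 21 (chr21:12123084-12123283, plus strand) holds 1 p53 decamer, in capitals, in sequence whose 31-base words occur a median of 1474 times.
PCNX2 promoter: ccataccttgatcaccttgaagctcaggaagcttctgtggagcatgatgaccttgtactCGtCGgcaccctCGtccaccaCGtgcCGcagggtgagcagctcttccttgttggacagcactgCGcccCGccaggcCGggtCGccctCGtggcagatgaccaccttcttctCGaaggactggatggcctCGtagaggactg
chromosome 21 repeat: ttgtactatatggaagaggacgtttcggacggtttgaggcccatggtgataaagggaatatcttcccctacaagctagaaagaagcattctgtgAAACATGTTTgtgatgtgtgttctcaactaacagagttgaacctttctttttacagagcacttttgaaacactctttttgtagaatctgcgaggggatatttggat

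Most members were small enrichments. The height of a region was taken as the number of fragments piled up at its summit, which could be recovered from the deposited fold enrichment and p-value as a whole number for 732 of 732 members, together with the background expected there from the input. The summit pileup had a median of 16 fragments and ran between 12 and 5381, and 613 members (83.7%) stood between 12 and 20, where 12 was the lowest pileup called in this library. The comparison set had a median of 26 fragments. Fold enrichment over background had a median of 3.55 in members (1.07 to 6.28) and 3.26 in the regions that overlap WTOE, and the −log10 q had a median of 2.46 in members (1.32 to 109). Members were a median of 362 bp wide, against 528.5 bp in the comparison set, and 718 (98.1%) had 1 summit.

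The background under the summits divided the members. It sat at the genome-wide floor of 2.95 fragments in 271 of them and above 10 in 57, of which 29 were above 100. The plot of pileup against background shows the members with the highest pileups lying close to the line where both are equal. Of the 57 with a background above 10, 35 were pentamer satellites and 22 were not, among them a tandem repeat of another kind with 1588 fragments.

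**Figure D1:**
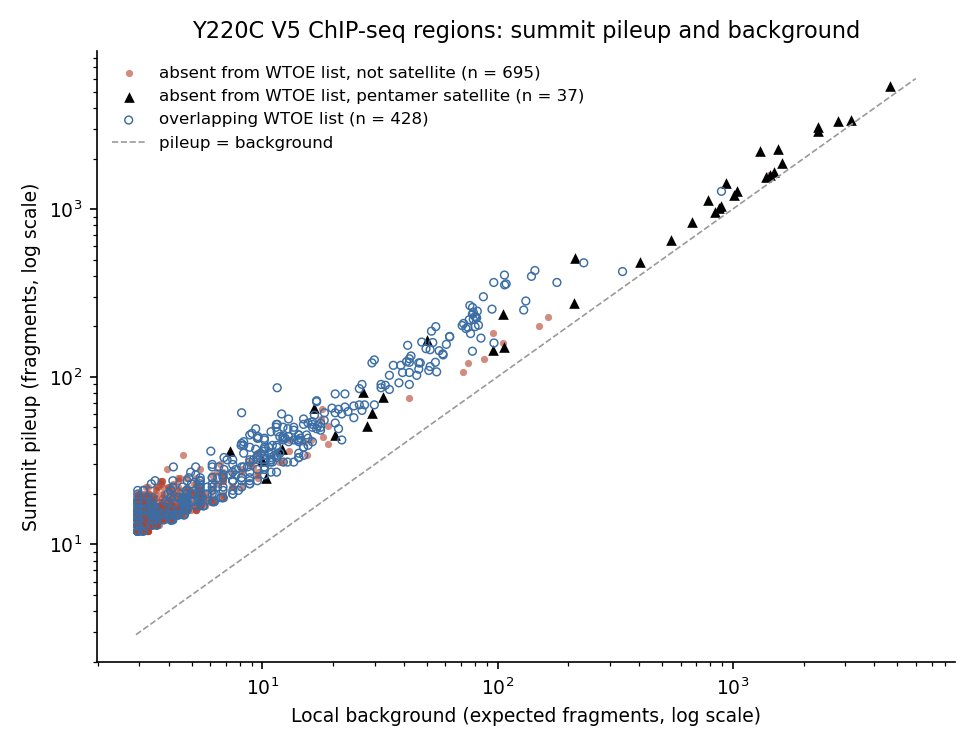
Summit pileup (fragments, log scale) against local background (expected fragments, log scale) for each Y220C region: members without satellite sequence as red points, the 37 members with pentamer satellite sequence as black triangles and the 428 regions that overlap the WTOE-labelled list as open blue circles, with a dashed line where pileup equals background. The satellites reach 5381 fragments over a background of 4648, while most members lie between 12 and 20 fragments.

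Where the rule's limit fell can be seen from the regions on each side of it. The member closest to a WTOE region lay 4 bp from it and the next ones 10 and 18 bp, while the smallest overlaps among the non-members were 5, 17 and 23 bp. A WTOE region lay within 500 bp of 45 members and within 10 kb of 257, the median distance was 31443 bp, and 53 members had none within 1 Mb. The lowest pileup in the WTOE-labelled list was 12 over a floor of 3.55, so a region absent from it may have held fewer fragments there without being empty.

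The 10 members of highest significance were all pentamer satellites, 9 of them on chromosome 1 and 1 on chromosome 10. Their folds were 1.16 to 3.25, against the members' median of 3.55, over backgrounds of 50.1 to 4648 fragments. The first, chr1:143246885-143247280, had 2219 fragments over 1306 in the Y220C library, 2278 over 1711 in R273C and 698 over 318 in R273H, which is a fold of 1.7, 1.33 and 2.19. The next on the list, chr1:125166928-125167243, had 513 fragments over 213 in Y220C, 480 over 313 in Y234C and 172 over 48.7 in R273H. The highest pileup of all, at chr1:125182253-125182868, was 5381 over 4648 in Y220C, with 7233 over 5907 in R273C and 2045 over 1228 in R273H. Of these 10 members, 10 were also in the R273H list, 6 in the R273C list and 5 in the Y234C list, and the nearest WTOE region was 8.40 to 139 kb away.

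Members in all carried 37 such satellites (8 or more copies of GGAAT on either strand in the window of 150 bp to each side of the summit), 23 on chromosome 1 and the rest on 9 other chromosomes, all annotated as intergenic. They made up 5.05% of the members, against 1.17% of the regions that overlap WTOE and 0.0684% of the whole WTOE-labelled list. The share was 4.10% in the members' windows moved by 5 kb to either side. It was 21.4% in the R273C list, 2.18% in the Y234C regions absent from WTOE and 0.841% in the R273H list. The 37 members had a median pileup of 833 over a median background of 669, and 35 of the 37 had a background above 10.

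7SL-like sequence was the commonest repeat. A match to RN7SL1, the 7SL RNA gene, lay in 247 members (33.7%, 95% Wilson interval 30.4 to 37.2), against 69 of the 428 regions that overlap WTOE (16.1%, 12.9 to 19.9). Moved by 5 kb upstream or downstream, the members' windows matched in 15.6% and 17.5%. The Y234C regions absent from WTOE matched in 17.8% and the R273H list in 5.98%, whereas the WTOE-labelled list itself matched in 33.5%, so this share did not set the members apart from the list they were absent from. This sequence search was chosen after the members' sequences had been seen and is given without a test.

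The 7SL-like members were rich in CG. Their windows held a median of 12 CG, compared with 5 in the moved windows that also matched RN7SL1, and the 7SL-like regions of the other sets held a median of 12 in the Y220C regions that overlap WTOE, 13 in the Y234C regions absent from WTOE, 15 in the R273C list and 8 in the R273H and WTOE-labelled lists. The members' median was not above those of the Y220C regions that overlap WTOE, the Y234C regions or the R273C list. Of the 246 that held no satellite, 164 (66.7%) had 10 or more. They were small regions, with a median pileup of 16 (12 to 36), the same median as all members. Of them, 154 lay in introns and 84 between genes. In none of the 3 other mutant lists were 229 (93.1%), beside 79.4% of all members and 94.1% of the 322 members of no repeat kind.

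CG content was raised across the members as a whole. The median was 10 CG per window (quartiles 6 and 14), against 14 in the regions that overlap WTOE, 12 in the Y234C regions absent from WTOE, 7 in the WTOE-labelled list and 3 in the members' own windows moved by 5 kb in either direction. Median GC content was 53.5% in members, 59.6% in the comparison set and 43.9% in the moved windows. Members without 7SL-like sequence had a median of 8 CG. The GC box GGGCGG, on either strand, was in 23.4% of members and 27.1% of the comparison set, compared with 6.15% and 9.84% of the moved windows of members and 18% and 19.4% of those of the comparison set.

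**Figure D2:**
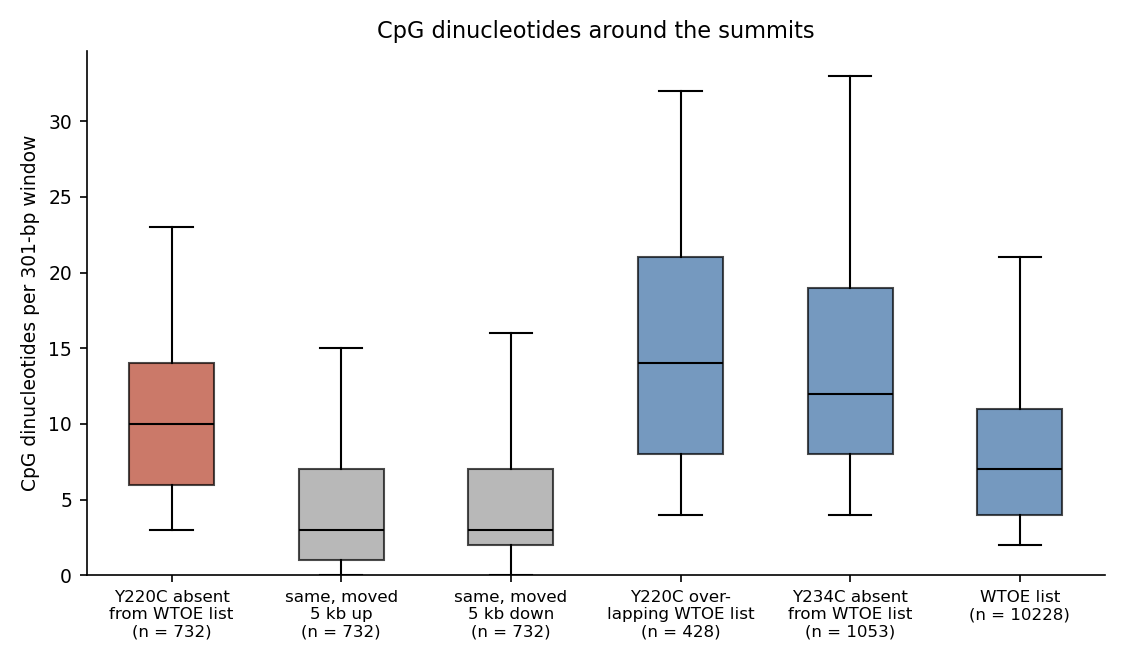
CpG dinucleotides per window of 150 bp to each side of the summit, as boxes (quartiles and median) with whiskers that leave out 5% of windows at each end. The Y220C regions absent from the WTOE-labelled list have a median of 10, their own windows moved by 5 kb a median of 3, and the WTOE-labelled list a median of 7.

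The p53 decamer, searched on both strands, was no more common at the members' summits than beside them. It was in 37 of 732 members (5.05%, 95% Wilson interval 3.69 to 6.89) and in 35 of 428 regions that overlap WTOE (8.18%, 5.94 to 11.2), a difference with an adjusted p of 0.0429 (two-sided Fisher's exact test on regions, Benjamini-Hochberg adjusted over the 5 shares compared). The members' windows moved by 5 kb held it in 8.33% and 6.56%, and the WTOE-labelled list in 7.10%. The moved windows of the comparison set held it in 7.71% and 7.94%, so the 8.18% at its summits was close to the share beside them. Within 50 bp of the summit the order turned round, with 2.32% of members and 1.64% of the comparison set (adjusted p = 0.524 by the same exact test). Neighbouring regions in 1 repeat array are not independent, which limits both tests. A full p53 site, 2 decamers 0 to 13 bp apart, was found in 0 of 732 members, which allows a share of up to 0.410% (3 counts of the total, for counting error only), in 0 of 428 regions of the comparison set and in 9 regions (0.0880%) of the WTOE-labelled list. The 37 members with a decamer had pileups of 12 to 22, and 13 of them were 7SL-like. In no other mutant list were 28 of the 37, beside 581 of all 732 members (79.4%).

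Of the other motifs searched, the AP-1 motif and the CCAAT box were less common at the members' summits than beside them. The AP-1 motif TGANTCA was in 4.64% of members and 2.57% of the comparison set, against 8.20% and 7.10% of the moved members' windows, and the CCAAT box was in 22.5% and 21%, against 35.4% and 30.6%. The TEAD motif GGAATG, which binds the partners of YAP and TAZ and overlaps the satellite pentamer, was in 15.6% of members and 12.1% of the comparison set, against 14.8% and 17.8%. The E-box CACGTG (7.10% of members and 9.58% of the comparison set, moved members' windows 4.78% and 3.69%) and the ETS motif CCGGAAG (2.87% and 1.64%, moved 1.09% and 1.37%) stood higher at the members than beside them, as the CG-containing GC box did.

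Whether members recurred in the other mutants was asked of the R273H, Y234C and R273C lists, which the rule did not use. The rule did sort regions by presence in another V5 list, so regions that recur across V5 libraries tend to fall in the comparison set. Members also had lower pileups (median 16 against 26) and smaller widths (362 against 528.5 bp). Members recurred far less than the Y220C regions that overlap WTOE. In the R273H list lay 128 members (17.5%, 95% Wilson interval 14.9 to 20.4) and 322 regions of the comparison set (75.2%, 70.9 to 79.1), with an adjusted p of 4.37e-86. In the Y234C list lay 63 members (8.61%, 6.78 to 10.9) and 265 of the comparison set (61.9%, 57.2 to 66.4), with an adjusted p of 1.18e-84, and in the R273C list 35 members (4.78%, 3.46 to 6.58) and 99 of the comparison set (23.1%, 19.4 to 27.4), with an adjusted p of 4.99e-20. All 3 are two-sided Fisher's exact tests adjusted over the 5 shares. They compare sets of regions of 1 library, and neighbouring regions in 1 repeat array are not independent, so they say nothing of the spread between cultures.

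Repeated sequence moved with these shares. No 31-base word was unique in the genome in the windows of 144 members (19.7%) and of 259 regions of the comparison set (60.5%), and the same held for 80.0% of the R273H list. Among regions with at least 50% of their words unique, 1.56% of 320 members and 14.8% of 54 comparison regions were in the R273H list (adjusted p = 1.40e-04) and 2.81% and 25.9% in the Y234C list (1.74e-07), both by the same exact test. In the R273C list lay 0 of 320 members, which allows up to 0.938% (3 counts of the total), and 2 of the 54 comparison regions (3.70%, adjusted p = 0.0256 by the exact test), a count too small to read a difference from. In this mostly unique sequence the differences in the 3 lists were -13.3, -23.1 and -3.7 percentage points (members minus comparison set) in place of -57.7, -53.3 and -18.3. This subset was chosen after the data were seen.

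**Figure D3:**
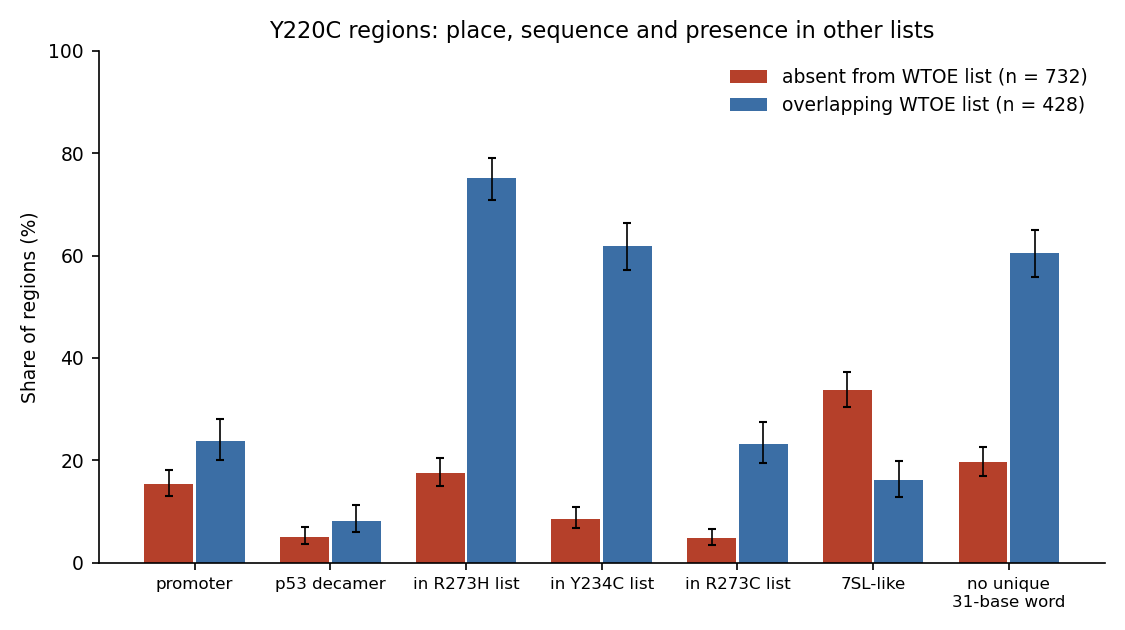
Share of regions (%, bars, with 95% Wilson intervals) among the 732 Y220C regions absent from the WTOE-labelled list (red) and the 428 that overlap it (blue), for summits in a promoter, with a p53 decamer, in each other mutant list, with 7SL-like sequence and with no unique 31-base word. In the R273H list lay 17.5% of the red and 75.2% of the blue regions, whereas 7SL-like sequence was in 33.7% and 16.1%.

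In all, 581 members (79.4%) were in the Y220C list alone. Absence from the WTOE-labelled list was set by the rule, so this share speaks only of the 3 other mutant lists. The same share was not computed for the comparison set. Of the members, 83.7% stood at 12 to 20 fragments, near the lowest pileup called. A further 88 were in 1 other mutant list, 51 in 2 and 12 in all 3. The 57 members that coincided with a Y234C region also absent from WTOE were 7.79% of the members and 5.41% of the 1053 such Y234C regions. Seen from the other lists, a member was overlapped by 4.06% of the Y234C list, 9.71% of the R273C list and 0.581% of the R273H list.

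Sequence kind separated the members that recurred from those that did not. When each member was given 1 kind, 86.5% of the 37 satellites were in the R273H list (95% Wilson interval 72 to 94.1), 54.1% in R273C and 32.4% in Y234C. The 32 members of other tandem repeats were in the R273H list in 68.8% and the 95 members without any unique 31-base word in 57.9%. The 246 7SL-like members and the remaining 322, by contrast, were in it in 5.28% (3.11 to 8.83) and 1.86% (0.857 to 4). The remaining 322, whose windows had a median of 100% unique words, had a median pileup of 15 and were in no other list in 303 cases (94.1%). The kinds were set after the sequences were seen and are given without a test.

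**Figure D4:**
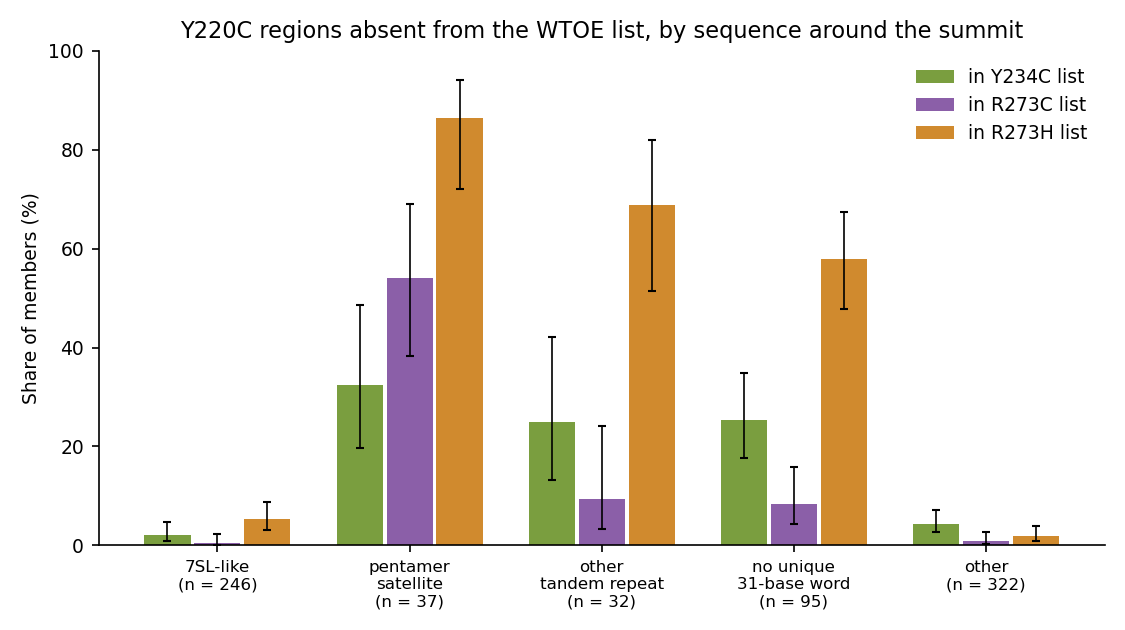
Share of members (%, bars, with 95% Wilson intervals) that lie in the Y234C, R273C and R273H lists, for each kind of sequence around the summit: 7SL-like, pentamer satellite, other tandem repeat, no unique 31-base word, and the rest. The satellites reach 86.5% in the R273H list, and the 7SL-like and remaining members stay at or under 5.28% in every list.

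The 63 members found in 2 or more of the other mutant lists were all in the R273H list, 30 of them together with Y234C alone, 21 with R273C alone and 12 with both. They comprised 25 satellites, 24 members without a unique word, 8 other tandem repeats, 2 7SL-like members and 4 others, and 61 had fewer than 50% of their words unique. Well-known arrays were among them. All 4 members in the DXZ4 array (DANT1 and DANT2 are its non-coding transcripts) were also in the Y234C and R273H lists, with pileups of 14 to 18 and folds of 3.31 to 4.81. At D4Z4 and other DUX4L genes 7 members had pileups of 15 to 27, and 4 of these were in 2 or more lists. The USP17L family held 6 members, 5 of them in the R273H list and 2 in R273C, and the REXO1L array held 2.

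These arrays were not free of WTOE regions. At DXZ4 there were 14 Y220C regions that overlap WTOE beside the 4 members, and 25 regions of the WTOE-labelled list. At D4Z4 and DUX4L genes the counts were 7 members, 21 overlapping regions and 42 WTOE regions, and at REXO1L genes 2, 20 and 23. Members in the DXZ4 array lay 168 to 1302 bp from the nearest WTOE region and those at D4Z4 and DUX4L genes 329 to 2172 bp. The 4 members at the PRR20 genes of chromosome 13 and the 4 at the GAGE genes of the X chromosome had 1 and 3 overlapping regions beside them. The WTOE-labelled list held 8 and 14 regions there. At USP17L genes the counts were 6 members, 8 overlapping regions and 29 WTOE regions.

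Members were unevenly spread over the chromosomes. Chromosomes 1, 5 and 8 held 176, 84 and 95 members, 48.5% of the total in 19% of the sequence, and they held 37.6% of the comparison set, 44.5% of the WTOE-labelled list, 48.9% of the Y234C list and 18.9% of the R273H list. The fullest 5-Mb intervals were 140 to 145 Mb on chromosome 8 with 37 members, the same interval on chromosome 1 with 29 (at a median background of 870), and 225 to 230 Mb and 200 to 205 Mb on chromosome 1 with 20 and 19. The WTOE-labelled list had 340, 65, 282 and 290 regions in them. The 5 fullest intervals together held 121 members (16.5%), and 285 intervals held at least 1. Chromosomes 13 and 15 carried 4.37% and 5.05% of members, against 0.234% and 0.701% of the comparison set and 1.19% and 2.09% of the WTOE-labelled list. They make up 3.77% and 3.37% of the sequence and held 3.15% and 4.05% of the R273H list. The members' shares there were thus nearer to the share of sequence than those of the comparison set were.

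The input-based background moved with this distribution. On chromosome 1 beyond the pericentromeric satellites the 134 members had a median background of 3.98 and only 11.2% were at the floor, whereas the 17 members before 120 Mb had 3.06 and 47.1%. Chromosome 8 members had a median of 3.40 with 33.7% at the floor and chromosome 5 members 3.22 with 31%, against 2.95 with 50.4% for the 377 members on all other chromosomes. Median pileups were alike, 16.5 for these 134 members, 16 on chromosome 8 and 15 elsewhere. The part of this background in the spread of the members was not tested.

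With respect to genes, 379 members lay in introns, 280 between genes and 73 in exons. Start sites of every annotated transcript were counted, so a promoter here can lie inside the body of its gene. A summit fell in a promoter, from 2500 bp upstream to 100 bp downstream of an annotated start site, in 113 members (15.4%, 95% Wilson interval 13 to 18.2) and in 102 regions of the comparison set (23.8%, 20.0 to 28.1), with an adjusted p of 6.85e-04 (two-sided Fisher's exact test, adjusted over the 5 shares). The direction depended on which genes were counted, since for protein-coding genes alone it was 7.65% of members and 4.44% of the comparison set (adjusted p = 0.0429 by the same exact test). With a promoter of 1000 bp upstream the shares were 8.61% and 10.5% (adjusted p = 0.296), and with a background of at most 10 they were 16.0% and 19.7% (adjusted p = 0.203), all by the same exact test.

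The members reached a promoter of at least 1 annotated transcript of 55 protein-coding genes. Of the 15 with the most significant regions, USP17L24 came first, with 34 fragments over 4.58 (fold 6.28, the highest among members) and 2 members, followed by PCNX2 with 25 over 4.37, CTAGE15 with 22 over 3.95 and PIP5K1C, which makes the lipid PtdIns(4,5)P2, with 18 over 2.95 in a tandem repeat. The others were FBXO16, the R-spondin receptor LGR6, CELF6, NINL, the prostacyclin synthase PTGIS, the peptide transporter SLC15A2, ADCK5, GAGE13, the cytolinker plectin (PLEC), SLA and GPR20, with pileups of 15 to 20. Of these 15 genes, 5 reached a log2(TPM+1) of 1 in 3 or more lines, as did 26 of the 55 and 14884 of the 58358 genes of the whole table, which also holds non-coding genes. USP17L24, CTAGE15 and GAGE13 belong to families of near-identical copies, so both their fragments and their RNA are uncertain. The regions at PIP5K1C, SLC15A2, LGR6, CELF6 and FBXO16 had 0%, 9.96%, 11.4%, 26.9% and 33.6% of their 31-base words unique, so their fragments are uncertain too. At PLEC the share was 72.0%, and at the rest of the 15 it was 99.3% or more.

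None of the 55 was a member of the fixed lists of p53 targets, Hippo pathway genes, YAP/TAZ targets or SREBP and cholesterol synthesis genes, which are short, at 24 to 54 genes each, so that nothing is read from this count of 0. The nearest member summit to a start site was 6336 bp away for the p53 targets (SFN, the cell cycle inhibitor 14-3-3 sigma), 16242 bp for the cholesterol genes (DHCR7, the last enzyme of cholesterol synthesis), 18151 bp for the YAP/TAZ targets (ASAP1) and 18366 bp for the Hippo genes (WWC1). In the gene bodies, 2 members were found, chosen for mention after their values were seen: chr5:168352883-168353287 in an intron of WWC1 (KIBRA, an upstream Hippo regulator) with 12 fragments over 2.95, and chr19:41252318-41252632 in an exon of AXL, a receptor kinase and YAP/TAZ target, also with 12 over 2.95, the lowest pileup called.

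Whether genes with a member in the promoter had a distinct RNA level in Y220C cells was addressed by subtracting the mean of the other 9 mutant lines, with 1 library per line and so no test. Of the 55 genes, 26 reached 1 on the log2(TPM+1) scale in 3 or more lines. Of these, 4 were higher in Y220C by 1 or more (15.4%) and 1 was lower by 1 or more (3.85%). Over all 14884 genes past the same filter, non-coding genes included, the shares were 18.2% and 8.57%, so neither count stood above that background. A background of protein-coding genes alone was not computed. The median difference was 0.02 for the 26 genes, with quartiles of -0.39 and 0.47, and 0.18 for all genes. The Y220C value lay within the range of the other 9 mutants in 24 of the 26, and was the highest of the 10 mutants in 2 (7.69%, against 11.3% of all genes) and the lowest in 0 (3.39% of all genes).

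The 4 genes past a difference of 1 were ADCK5, PYCR3, FCHO2 and EEF1D. Without R273H and Y234C among the other mutants, EEF1D alone stayed past 1, at 1.23, with ADCK5 at 1.00 (just short of 1 before rounding), PYCR3 at 0.92 and FCHO2 at 0.82. FCHO2, which starts clathrin-coated pits, had 5.10 in Y220C, against 2.49, 3.95 and 4.84 as the lowest, median and highest of the other mutants and 4.64 in the WTOE-labelled library, 4.83 in WTKD and 4.11 in WT. It was the highest of the 13 lines, at a difference of 1.10. EEF1D, a subunit of translation elongation factor 1, had 4.86 in Y220C, against 3.18, 3.67 and 4.4 in the other mutants, but 5.02 in the WTOE-labelled library, 3.19 in WTKD and 4.19 in WT. Its difference was 1.09 from the other mutants and -0.16 from the WTOE-labelled library.

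ADCK5, an atypical kinase gene, had 3.06 in Y220C, against 0, 2.33 and 3.52 in the other mutants. It had 1.65 in the WTOE-labelled library, 2.23 in WTKD and 2.57 in WT. PYCR3, a reductase of proline synthesis, had 3.69, against 0, 2.96 and 4.30. It had 2.52 in the WTOE-labelled library, 2.72 in WTKD and 3.44 in WT. ADCK5 and PYCR3 therefore lay inside the range of the other mutants, with differences of 1.2 and 1.11. ADCK5, PYCR3 and EEF1D all lie on the end of chromosome 8 that held the most members, where 9 of 75 expressed genes (12%) were higher by 1 or more and 7 were lower, with a median difference of -0.06. TESMIN was the only gene lower by 1 or more, at 0.32 in Y220C, against 0, 2.69 and 3.73 in the other mutants and 1.92 in the WTOE-labelled library, a difference of -1.68 that was also inside the other mutants' range.

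The other named genes differed by less than 1. The regions at SLC30A5, RNF130, CCZ1B and USP37 had 14.4% or less of their words unique, and those at the others below 34.3% or more. Of those higher, the zinc transporter SLC30A5 stood 0.82 above the mean of the other mutants, the thymidine phosphorylase TYMP 0.49, the ubiquitin ligase RNF130 0.48 and CCZ1B, which has a near-identical copy, 0.45. Of those lower, the clock gene PER3 stood at -0.88, PCNX2 at -0.87, the chaperonin subunit CCT3 at -0.77, the autophagy receptor OPTN at -0.62, the deubiquitinase USP37 at -0.46, the transcription factor SOX13 at -0.40 and PLEC at -0.34. For CCT3 this was 8.89 in Y220C, against 8.52, 9.42 and 10.98 in the other mutants and 9.26 in the WTOE-labelled library. The same region lay nearer to a start site of RHBG, which was at 0 in all 13 lines.

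**Figure D5:**
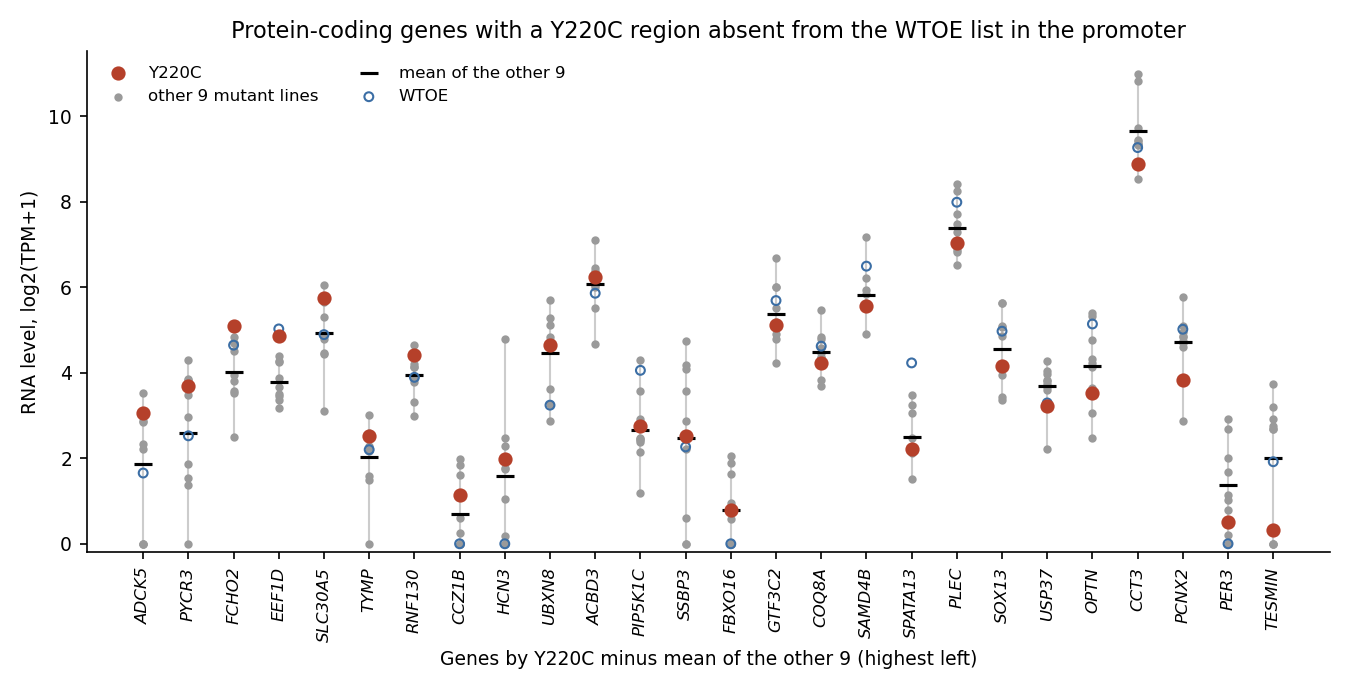
RNA level, log2(TPM+1), of the 26 protein-coding genes past the filter with a member in the promoter, ordered by the Y220C difference: Y220C as red points, the other 9 mutant lines as grey points with their mean as a black dash, and the WTOE-labelled library as open blue circles. The red point is inside the grey range in 24 of the 26 genes.

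In the fixed lists, which hold none of the members' promoter genes, 15 of 53 expressed p53 targets were higher in Y220C by 1 or more and 6 were lower by 1 or more, with a median difference of 0.47. For the YAP/TAZ targets it was 6 and 0 of 24 (median 0.35), for the Hippo pathway 3 and 2 of 36 (0.34) and for the cholesterol genes 4 and 2 of 30 (0.05), beside the 18.2% and 8.57% of all genes.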

How the data were processed

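V5 ChIP-seq covered 5 MCF10A lines with V5-tagged p53, and RNA-seq covered 13 lines, with 1 library of each kind per line. The authors aligned ChIP reads to GRCh38 with Bowtie2 2.1.0 and called each library's regions against input (MACS2 version 2.1.2.20181017, threshold q 0.05), without pooling. The deposited columns used are the fold enrichment (a linear ratio), the −log10 p and −log10 q, and the integer display score was not used. The RNA values were deposited by the authors as log2(TPM+1), and their depth is not given by these files. The paper reports high duplication rates in the RNA libraries. It also reports a large and variable share of mitochondrial reads, which was removed before TPM was computed. How far this bears on low values and on values of 0 was not tested. Differences in RNA are on that scale (pseudocount 1), after a filter of at least 1 in 3 lines.

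Rows of the same region with several summits were merged. Pileup and background were solved from fold and p, a pileup counting as whole within a tolerance of 0.001. Windows of 150 bp to each side of the highest summit were read from GRCh38. Start sites were those of every transcript in GENCODE 44, and 7SL-like sequence was found with blastn 2.17.0 (E value 1e-05). Unique 31-base words were counted on the assembled chromosomes. Python 3.11.15, numpy 2.4.6, pandas 2.3.3 and scipy 1.17.1 were used, and steps were tested on simulated data. Shares were compared by two-sided Fisher's exact tests with Benjamini-Hochberg adjustment over 5 shares, and intervals are Wilson's at 95%, which cover counting error only. With 1 library per line, no test between lines was made.

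By rule, regions are drawn from the 10 most significant members and those in 2 or more other mutant lists, of which the text gives a few in full and the others as counts and ranges, and, of genes with a member in the promoter, the text names the 15 of most significant member and the 8 highest and 8 lowest RNA differences. Members, lists and this rule were chosen with earlier results of these data known. Scaffolds and the lines without ChIP data were left out of the region counts. Some sequences and 1 RNA check of the labels are not reported here.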

Additional observations from a re-analysis of the deposited data

Results flagged for a closer look

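On unplaced and unlocalized scaffolds, which the comparisons above do not use, the Y220C list held 129 regions, and 16 of these overlapped none of the 228 regions of the WTOE-labelled list there. With 1 library per line, no error between cultures can be given for this count.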

How the results depend on the processing

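All 18 values of the overlaps with the R273H, Y234C and R273C lists under other settings kept their direction and passed the test, among them 6 under settings chosen after the data were seen. The R273C value in mostly unique sequence, 0% of 320 members against 3.70% of 54 comparison regions, rests on counts too small to read a difference from. The sets were split by presence in a V5 list under all of these settings, so the limit given above holds for them too. The difference in promoter share, members minus regions that overlap WTOE, was -8.4 percentage points. It was -1.9 with a promoter of 1000 bp upstream, -7.2 among regions with at least 50% of the 31-base words unique (15% against 22.2%, adjusted p = 0.227 by the exact test) and -3.7 with a background of at most 10 (both subsets chosen after the data were seen), none of the 3 past the test, and it was 3.2, in the other direction, for protein-coding start sites. The difference in p53 decamer share was -3.1 points. It was -2.4 when the 45 members within 500 bp of a WTOE region were counted with the comparison set and -1.2 with at least 50% of the words unique, neither past the test, and 0.7, in the other direction, within 50 bp of the summit. No value exists for the full p53 site, which was in no Y220C region. The count of members was 461 at a −log10 q of at least 2, and 687 to 791 under the other region settings.

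Among promoter genes, 4 were higher and 1 lower in Y220C. Those lower were 2 with a pseudocount of 0.1 and 5 against the WTOE-labelled library alone. Those higher were 1, EEF1D, against the mutants without R273H and Y234C. With the shorter promoter they were 2 higher and 0 lower, of 14 genes. Background shares were 28.4% and 15.2% higher and lower with a pseudocount of 0.1, 24% and 16.7% against the WTOE-labelled library, and 12.8% and 10.8% without R273H and Y234C. EEF1D stood at -0.16 against the WTOE-labelled library, and PER3, OPTN and PIP5K1C at 0.50, -1.61 and -1.30. With a pseudocount of 0.1, CCZ1B stood at 1.69 in place of 0.45, past 1, and ADCK5 at 2.28 in place of 1.2. The cause of these changes was not tested. No paired analysis was possible because each line had 1 library. A pileup of 12 was the lowest called in Y220C and in WTOE, so depth limits what absence from a list can show.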
